A study of Arabidopsis thaliana with 18 samples.

Results

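The *stn7* mutant and wild-type *Arabidopsis thaliana* were compared 30 min after a change of lamps, from light exciting mainly photosystem I (PSI light) to light exciting mainly photosystem II (PSII light). This comparison used 6 of the 18 arrays, 3 of wild type (WT, ecotype Col-0) and 3 of *stn7*, chosen by the genotype and time in their labels. *stn7* is a knockout line, SALK_073254, in the Col-0 background, and it is a single line. Both groups were grown for 20 days at 22 °C and 60% humidity under white lamps (35 µE). They then spent 3 days in PSI light and 30 min in PSII light, and were about 23 days old. Each array was hybridised with RNA from rosette leaves of a separate pool of at least 250 plants, frozen under the lamps. The other 12 arrays hold the same genotypes in PSI light (0 min) and after 60 min of PSII light.

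STN7 is a protein kinase of the thylakoid membrane in the chloroplast. When PSII outruns PSI, the plastoquinone pool between them becomes reduced, and STN7 is activated and phosphorylates light-harvesting proteins, which rebalances the excitation of both photosystems (state transitions). The kinase is also known to be needed for slower acclimation, in which the redox state of plastoquinone alters the expression of photosynthesis genes, and the submitters used the mutant as plants that do not perceive this signal. The question at 30 min was which transcripts set the mutant apart from WT early after such a shift.

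All values are log2 expression values of probe sets, the groups of short probes that measure one transcript. A difference is the mean of the 3 *stn7* arrays minus the mean of the 3 WT arrays, given ± its moderated standard error (SE) from limma, and adjusted p is the Benjamini-Hochberg value over all 22746 probe sets. A probe set was called when its adjusted p was under 0.05. Levels of different genes are not compared, since each probe set binds with its own efficiency. Values ran from 2.53 to 14.02, with array medians of 6.20 to 6.28 in WT and 6.27 to 6.31 in *stn7* at 30 min. At 30 min the arrays of 1 genotype correlated at 0.9936 to 0.9967 and arrays of different genotypes at 0.9906 to 0.9932. The mean difference between 3′ and 5′ control probe sets, a sign of RNA integrity, was 1.55 ± 0.08 (SD, n = 3) in WT and 1.61 ± 0.05 in *stn7*. Of the probe sets, 13513 (59.4%) had 1 gene in the annotation, and most of those carried only a locus number, to which no function is assigned here. Arrays 1 and 3 of WT at 0 min had the highest scores on the main axis of within-group variation. They scored 43.0 and 45.7, against -25.3 to 28.8 in the other 16 arrays. Array 2 of that group scored 9.86, so within the group it lay apart from arrays 1 and 3. Which of the 3 is atypical was not tested. The scores also carry differences between groups, with means at 0 min of 32.9 in WT and -2.93 in *stn7*, and at 60 min of -14.9 and 15.1. A fit with this score as a covariate can therefore take up part of the genotype difference at those times. The 0 min results described here are also given without arrays 1 and 3. That fit keeps 1 WT array at 0 min, which is assumed to vary like the other groups, so its precision at 0 min is lower (median SE 0.168, against 0.122 with all arrays).

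The genotypes differed in 404 of 22746 probe sets (1.78%). There were 238 higher in *stn7* (1.05%) and 166 lower (0.73%). The 3 arrays of each genotype did not overlap in 403 of the 404 (1.77% of all), while non-overlap alone was found for 4980 probe sets (21.9%). The changes were small. The median size of the called differences was 0.59 on the log2 scale, against 0.12 over all probe sets, and the smallest called was 0.34. Only 36 called probe sets differed at least 2-fold, 9 higher and 27 lower, so the lower group held most of the large changes although the higher group was larger. At an unadjusted p under 0.05 there were 3574 probe sets (15.7%).

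**Figure D1:**
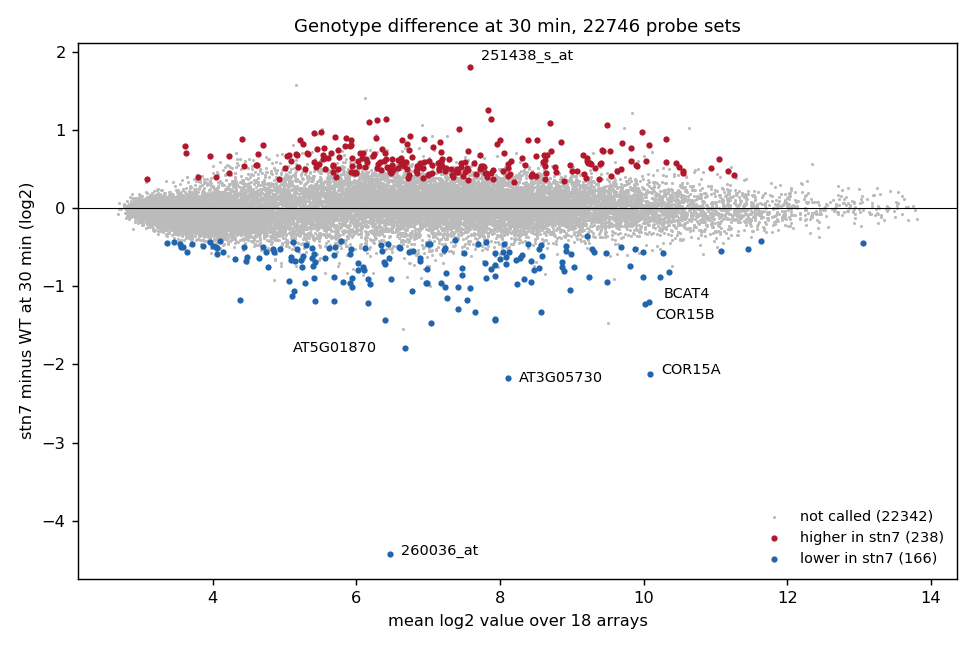
The genotype difference at 30 min (log2, vertical axis) of each of 22746 probe sets against its mean log2 value over all 18 arrays (horizontal axis). Red points are the 238 probe sets called higher in *stn7* and blue points the 166 called lower, with 1 probe set, 260036_at, far below the others at -4.43.

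The count depended on single arrays. It was 165 without WT replicate 1, 150 without WT replicate 2, 152 without *stn7* replicate 2 and 92 without *stn7* replicate 3, and 278 and 322 without WT replicate 3 and *stn7* replicate 1. The balance of directions depended on scaling: with each array centred on its median, 107 were higher and 259 lower, and after quantile normalization 168 were higher and 200 lower. Centring moved the median difference of all probe sets from -0.01 to -0.07.

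The largest changes with a named gene were falls. COR15A, which encodes a cold-regulated protein of the chloroplast stroma, had log2 values of 11.05, 10.86 and 10.90 in WT and 8.94, 8.84 and 8.68 in *stn7*. All *stn7* arrays lay far below all WT arrays, and the arrays within each genotype were close together. The difference was -2.12 ± 0.18, a 4.35-fold lower signal (limma, adjusted p = 5.73e-06). Its close relative COR15B, also a cold-regulated chloroplast protein, read 10.50, 10.52 and 10.28 in WT and 9.61, 9.03 and 8.97 in *stn7*. The groups again did not overlap, with *stn7* replicate 1 the highest of the mutant arrays, and the difference was -1.23 ± 0.18 (limma, adjusted p = 0.00339). COR15A and COR15B are neighbours on chromosome 2 in the RefSeq annotation of assembly TAIR10.1. Both calls held when any single array at 30 min was left out.

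Of the 10 genes listed for cold and dehydration, 4 had a named probe set, and 2 of the 4 were lower and 0 higher in *stn7*, where 0.73% of all probe sets were lower and 1.05% higher. The others were dehydrins, hydrophilic proteins made when cells lose water. LTI30 read 7.0, 6.90 and 7.33 in WT and 5.48, 5.56 and 5.56 in *stn7*. These groups were also clearly apart, but LTI30 varied widely within other groups (SD 1.24 in WT at 0 min), and its difference of -1.55 ± 0.41 did not pass (limma, adjusted p = 0.066). COR47 was at 12.25, 12.25 and 12.29 in WT and 11.61, 12.11 and 12.18 in *stn7*, a small gap in which the groups did not overlap. Its difference was -0.30 ± 0.17 (limma, adjusted p = 0.406). At 0 min COR47 lay the other way, with 10.78, 11.36 and 10.69 in WT and 12.08, 12.01 and 11.61 in *stn7*. The median of the 4 at 30 min was -1.39, against -0.01 over all probe sets.

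COR15A was followed over all groups, since its genotype difference varied with time. The WT means at 0, 30 and 60 min were 9.97 ± 0.27, 10.94 ± 0.10 and 10.97 ± 0.25 (SD, n = 3). Those of *stn7* were 10.02 ± 0.20, 8.82 ± 0.13 and 9.82 ± 0.38. The WT mean was higher at 30 than at 0 min and the *stn7* mean lower, and the *stn7* mean at 60 min lay between its 0 and 30 min means. The genotype difference was 0.05 at 0 min (0.18 without WT 0 min arrays 1 and 3) and -1.15 at 60 min (limma, adjusted p = 0.878 and 0.00114). The difference at 30 min exceeded that at 0 min by -2.17 ± 0.25 (limma, adjusted p = 0.000822), and was -2.30 (adjusted p = 0.00713) without WT 0 min arrays 1 and 3. COR15B had the same order of groups, with WT means of 10.08 ± 0.03, 10.43 ± 0.14 and 10.47 ± 0.29 and *stn7* means of 10.14 ± 0.16, 9.20 ± 0.35 and 9.77 ± 0.38 at 0, 30 and 60 min. Its genotype difference at 30 min against 0 min was -1.29 ± 0.26 (limma, adjusted p = 0.0281). Without those WT arrays it was -1.26 and did not pass (adjusted p = 0.453). With array 1 or array 3 as the lone WT array at 0 min in place of array 2, the adjusted p was 0.0505 and 0.0357 (limma).

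**Figure D2:**
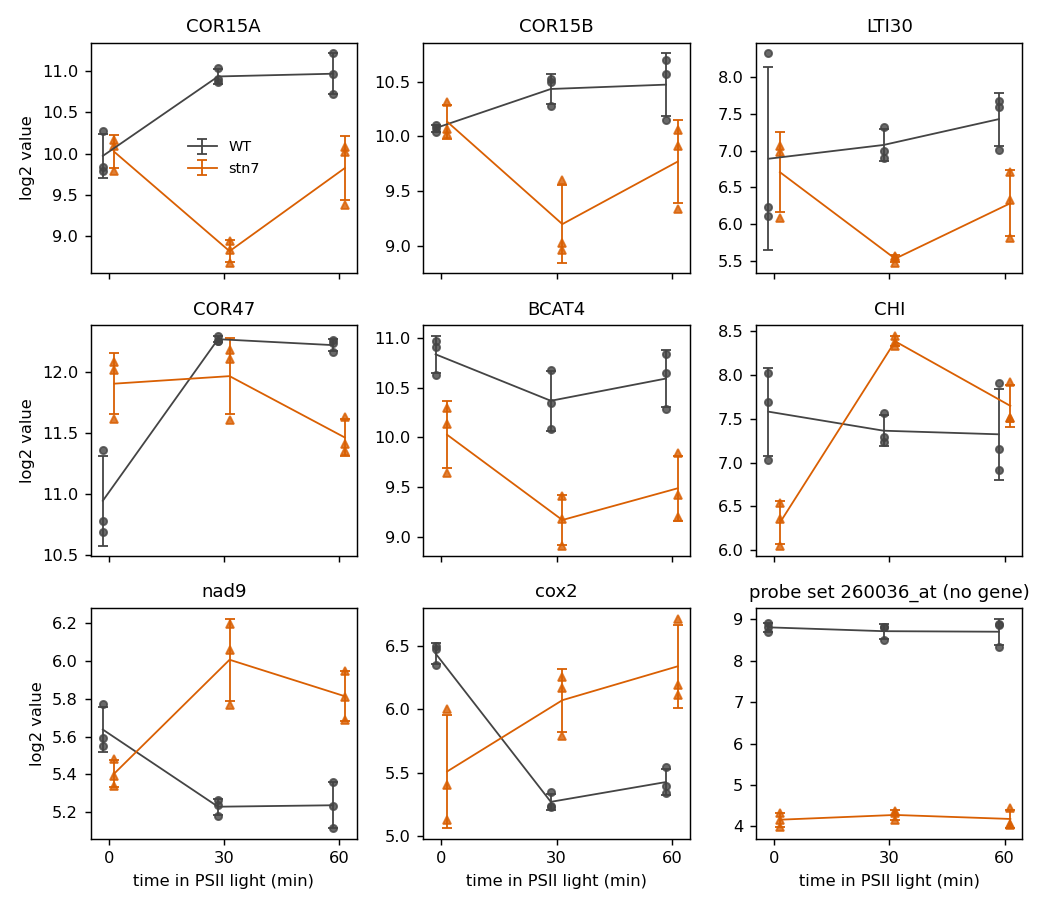
Log2 values (vertical axis) of 8 named genes and 1 unnamed probe set against minutes in PSII light (horizontal axis). Circles are WT arrays and triangles *stn7* arrays, 3 per group, and lines join group means with SD bars, with each panel on its own scale. COR15A, COR15B and LTI30 have their lowest mean in *stn7* at 30 min, and 260036_at is near 4.2 in *stn7* at every time.

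BCAT4, an aminotransferase that starts the chain elongation of methionine for aliphatic glucosinolates (defence compounds of the cabbage family), was lower in *stn7* as well. It read 10.34, 10.68 and 10.08 in WT and 9.19, 9.42 and 8.92 in *stn7*. The groups were separated by more than the spread within either, and the difference was -1.19 ± 0.20 (limma, adjusted p = 0.00643). At 60 min the difference was -1.10 (limma, adjusted p = 0.00301). The 0 min difference was -0.81 with all arrays (limma, adjusted p = 0.0154). Without WT 0 min arrays 1 and 3 it was -0.94, in a fit with 1 WT array that cannot say whether the call holds. With the axis score in the fit it was -0.47 and did not pass (limma, adjusted p = 0.511). That score can take up part of the genotype difference at 0 min. The 30 min call held without any single array at 30 min, with adjusted p up to 0.0474 in limma. UGT74B1, a glucosyltransferase of glucosinolate synthesis and the only other measured member of that list, differed by 0.20 (limma, adjusted p = 0.747).

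Genes known only by a locus number made up the rest of the largest falls. AT3G05730 read 8.22, 9.03 and 8.32 in WT and 7.05, 5.85 and 6.14 in *stn7*, with *stn7* replicate 1 nearest to WT and no overlap. Its difference of -2.17 ± 0.29 was the largest of any named gene (limma, adjusted p = 0.00122), and it was -1.74 at 60 min. Its 0 min value was 0.14, and -0.14 without WT 0 min arrays 1 and 3 (limma, adjusted p = 0.775 and 0.939). AT5G01870 (-1.79), AT1G14200 (-1.47), AT5G33370 (-1.43), AT2G33850 (-1.42), AT3G62950 (-1.21) and AT1G26800 (-1.17) followed, and AT3G56360, AT3G16530, AT3G05600, AT5G58390 and AT2G39920 differed by -0.97 to -1.04. Of the 15 largest falls, AT3G56360, AT3G16530 and AT3G05600 each lost their call in most of the fits without 1 array (highest adjusted p 0.101, 0.109 and 0.229).

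The largest rises were smaller. AT3G28270 read 5.98, 5.93 and 5.77 in WT and 7.05, 7.19 and 6.87 in *stn7*. Every *stn7* array exceeded every WT array by almost a full log2 unit, and the difference was 1.14 ± 0.14 (limma, adjusted p = 0.000912). At 60 min the difference was 1.42. At 0 min it was 0.53, and 0.60 without WT 0 min arrays 1 and 3, where it did not pass (limma, adjusted p = 0.0224 and 0.430). AT1G52000 (1.09), AT3G19680 (1.06), AT2G19970 (0.98), AT1G07050 (0.92) and AT3G50650 (0.91) were next among the genes with only a locus number, and AT4G30990, AT5G39940, AT4G23680, AT3G22060, AT2G07741, AT5G12110 and AT3G49160 rose by 0.82 to 0.88. Of these, AT3G22060, AT2G07741 and AT3G49160 did not pass in any of the 6 fits that left out 1 array at 30 min (highest adjusted p 0.133, 0.103 and 0.0878). AT3G19680 and AT1G07050 lost their calls in 4 of the 6 (highest adjusted p 0.104 and 0.117).

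**Figure D3:**
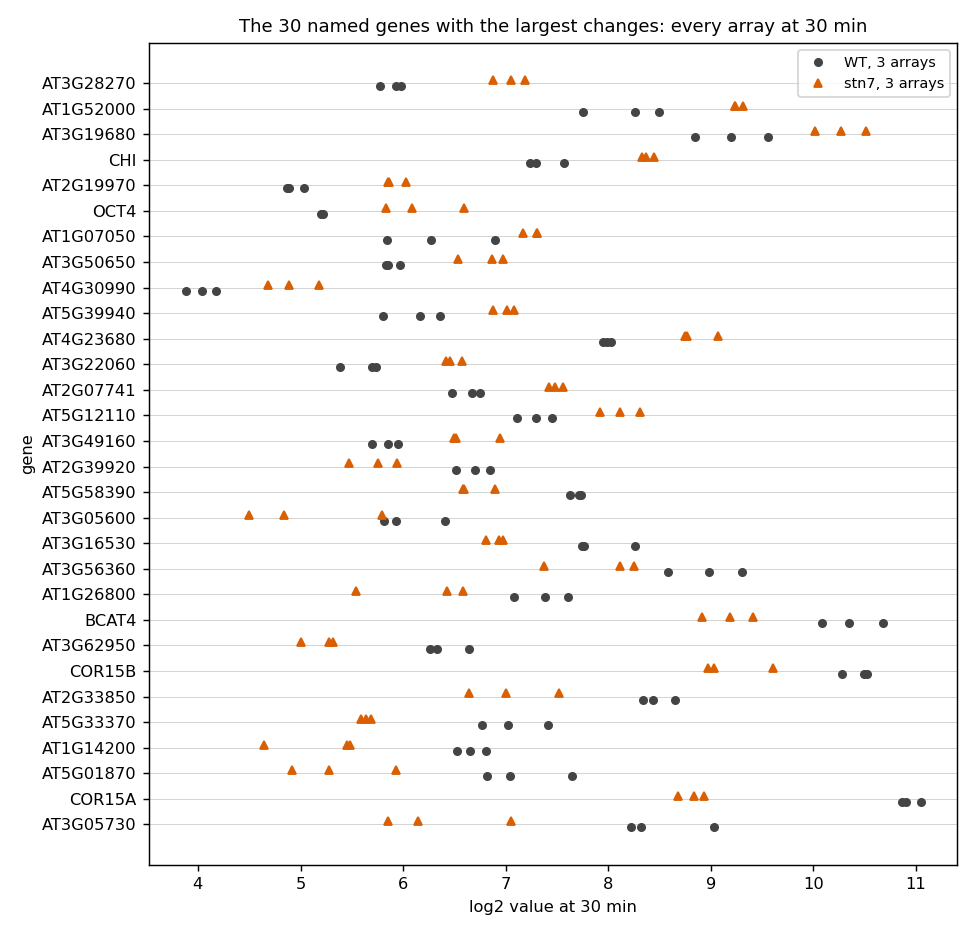
Log2 values at 30 min (horizontal axis) of every array for the 15 largest rises and 15 largest falls among genes with a called probe set (vertical axis, in the order of the difference). Circles are the 3 WT arrays and triangles the 3 *stn7* arrays of each gene. No gene's groups overlap, and AT3G05600 has the narrowest gap, with 1 *stn7* array at 5.80 beside a WT array at 5.81.

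CHI, a chitinase-family gene counted here among salicylate defence genes, was the largest rise with a gene symbol. It read 7.29, 7.23 and 7.56 in WT and 8.37, 8.33 and 8.44 in *stn7*, so that the mutant arrays were tightly grouped above WT. The difference was 1.02 ± 0.23 (limma, adjusted p = 0.0345). In 5 of the 6 fits that left out 1 array the call was lost, with adjusted p up to 0.143. At 60 min the difference was 0.32. At 0 min it was -1.27 with all arrays (limma, adjusted p = 0.00503). Without WT 0 min arrays 1 and 3 it was -0.72, in a fit with 1 WT array that cannot say whether the call holds. With the axis score in the fit it was -1.22 and did not pass (limma, adjusted p = 0.166). That score can take up part of the genotype difference at 0 min. GRX480, a glutaredoxin induced by salicylate and the other measured member of the list, differed by 0.37 at 30 min (limma, adjusted p = 0.314). Without WT 0 min arrays 1 and 3 the change in the genotype difference of CHI from 0 to 30 min was 1.73 (adjusted p = 0.193) rather than 2.28 ± 0.33 (limma, adjusted p = 0.00576).

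OCT4, a transporter of the organic cation family, read 5.21, 5.20 and 5.22 in WT and 5.83, 6.09 and 6.59 in *stn7*. WT was nearly constant and the *stn7* arrays spread upward from it, without overlap. The difference was 0.97 ± 0.17 (limma, adjusted p = 0.00681), against -0.04 at 60 min and 0.32 at 0 min (0.24 without WT 0 min arrays 1 and 3), and the call held without any single array.

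In all, 212 of the called probe sets had 1 gene, 122 higher and 90 lower, and 33 of these matched RefSeq with a gene symbol. The mitochondrion-encoded genes described below did not match and are not counted among the 33. All 33 were looked at, a choice made after their values were seen. Genes of transport and metabolism were found in both directions. SWEET13, a sucrose exporter that helps load the phloem, read 6.28, 6.49 and 6.31 in WT and 5.35, 5.60 and 5.40 in *stn7*. The *stn7* arrays lay well below WT, with a difference of -0.91 ± 0.12 (limma, adjusted p = 0.00128). At 60 min SWEET13 differed by -0.45. The 0 min difference was -0.43, and -0.40 without WT 0 min arrays 1 and 3, where it did not pass (limma, adjusted p = 0.0260 and 0.507). GSTU20, a glutathione S-transferase, differed by -0.89 ± 0.19 (limma, adjusted p = 0.0251), with values of 10.20, 10.75 and 10.06 in WT and 9.82, 9.37 and 9.17 in *stn7*. It was the only call among 12 glutathione S-transferase genes, where 0.73% of all probe sets were called lower. The median difference of the 12 was -0.10. The GSTU20 call was lost in 4 of the 6 fits without 1 array (limma, adjusted p up to 0.149).

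Genes of secondary metabolism and detoxification that were called included CHIL, a chalcone isomerase-like protein of the flavonoid pathway (-0.55), the cytochrome P450 gene CYP78A9 (-0.58), ALDH10A8, an aldehyde dehydrogenase (0.48), and UGT84A3, a glucosyltransferase of phenylpropanoid acids (0.59). The beta-glucosidase gene BGLU40 (0.57) and NAMT1, a methyltransferase (0.41), were higher. Genes of the cell wall and apoplast were ATPMEPCRD, a pectin methylesterase (-0.66), and ARPN, a plantacyanin (-0.70). The receptor-like kinase gene THE1, which monitors the state of the cell wall, was higher. THE1 read 7.96, 8.17 and 8.21 in WT and 9.12, 8.60 and 8.82 in *stn7*, with *stn7* above WT on every array and a difference of 0.73 ± 0.15 (limma, adjusted p = 0.0222). It lost its call at 30 min in 4 of the 6 fits without 1 array (adjusted p up to 0.0835). At 60 min THE1 differed by 1.07. Its 0 min difference was 0.70, and 0.69 without WT 0 min arrays 1 and 3, where it did not pass (limma, adjusted p = 0.00843 and 0.364). Of the other genes in these groups, ATPMEPCRD passed in all 6 fits that left out 1 array and ALDH10A8 in 5. CHIL and ARPN passed in 2, CYP78A9, BGLU40 and NAMT1 in 1, and UGT84A3 in 0. UGT84A3, BGLU40 and NAMT1 also lost their calls when arrays were centred on their medians.

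Among defence-related and proteolytic genes the vacuolar cysteine protease GAMMA-VPE (-0.55) and the thionin THI2.2 (-0.52) were lower, and JAL22, a jacalin-like lectin, was higher (0.60). Among genes of nucleic acids and protein folding TRZ3, which trims the 3′ ends of tRNA precursors (0.68), THO5, of the complex that couples transcription to mRNA export (0.50), and Hop3, a co-chaperone of Hsp70 and Hsp90 (0.80), were higher. The mitotic kinase gene AUR2 was lower (-0.79). GLC (-0.73), scpl28 (-0.49), AGL59 (-0.49) and CHX6B (-0.42) were also lower, and BZIP61 (0.52) and FYD (0.48) higher. For 2A6 one probe set was lower (264824_at, -0.62) and another higher (264826_at, 0.63), and the call of GYRB3 (0.55) came from the dimmer of its probe sets, since the brighter one differed by 0.02. Hop3, AGL59, scpl28, CHX6B and NAMT1 had mean values of 3.56 to 4.05, near the lower end of the scale. Most of these calls depended on single arrays. Of the 6 fits that left out 1 array, TRZ3 passed in 5, THO5 in 4 and AUR2 in 3. Hop3, GLC, AGL59, BZIP61 and FYD passed in 2. GAMMA-VPE, THI2.2, JAL22 and scpl28 passed in 1, and CHX6B and GYRB3 in 0. The 264824_at probe set of 2A6 passed in all 6 and 264826_at in 1.

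Transcripts of the mitochondrial genome were among the rises. Most of these genes encode subunits of the respiratory chain or parts of the machinery that assembles it. Of 16 mitochondrion-encoded genes with a named probe set, 6 were higher in *stn7* at 30 min and 0 lower, where 1.05% of all probe sets were higher and 0.73% lower. At an unadjusted p under 0.05 in limma 7 were higher and 1 lower, against 15.7% of all probe sets in either direction. nad9, a subunit of complex I, read 5.27, 5.24 and 5.18 in WT and 5.77, 6.20 and 6.06 in *stn7*. WT was tight and the mutant arrays all lay above it, by 0.78 ± 0.11 on average (limma, adjusted p = 0.00202). For cox2, a subunit of cytochrome c oxidase, the values were 5.35, 5.24 and 5.23 in WT and 5.79, 6.26 and 6.17 in *stn7*. The order was the same as for nad9, with a difference of 0.80 ± 0.18 (limma, adjusted p = 0.0349).

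The other calls were those of the complex I genes nad5 (0.75, adjusted p = 0.0310) and nad4L (0.65, adjusted p = 0.0222), the oxidase gene cox1 (0.60, adjusted p = 0.0374 in limma) and ccb452, a gene of cytochrome c assembly (0.63, adjusted p = 0.0116). In the other direction lay ccb382, also of cytochrome c assembly, at -0.53 (limma, adjusted p = 0.103), without overlap of its arrays. The median of the 16 was 0.24. Probe sets of 1 gene did not always go together: of 7 probe sets for nad1, 2 were called higher (0.76 and 0.71), and the brightest, used for the list, differed by 0.12.

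Only nad9 and ccb452 passed in every fit that left out 1 array at 30 min. The count was 5 without *stn7* replicate 1, 3 without WT replicate 2, and 2 without any of the other 4 arrays, and it was 3 with each array centred on its median. At 60 min the list median was 0.32. At 0 min it was -0.37, and -0.31 without WT 0 min arrays 1 and 3. For cox2 the genotype difference was -0.93 at 0 min and 0.91 at 60 min (limma, adjusted p = 0.00575 and 0.00480). Without WT 0 min arrays 1 and 3 cox2 differed by -0.84 at 0 min, in a fit with 1 WT array that cannot say whether the call holds. With the axis score, which can take up part of the 0 min genotype difference, cox2 differed by -0.61 and did not pass (limma, adjusted p = 0.331). Its WT mean was 6.44 ± 0.08 (SD, n = 3) at 0 min and 5.27 ± 0.06 at 30 min, while its *stn7* mean was 5.51 ± 0.45 and 6.07 ± 0.25. From 0 to 30 min, 5 of the 6 (not nad4L) changed in their genotype difference past the threshold, by 1.01 for nad9 to 1.73 for cox2. With WT array 2 alone at 0 min none of the 5 passed, although the values, 0.95 to 1.63, were little changed (limma, adjusted p 0.174 to 0.453). With array 1 or array 3 alone all 5 passed (limma, adjusted p up to 0.0263). Labelling started from poly(A) tails, which organelle transcripts mostly lack or carry only briefly, so these values do not measure the full amount of such transcripts.

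The plastid genome, whose products work beside STN7 in the thylakoid, gave 0 calls in 69 genes by limma, against 1.78% of all probe sets. An unadjusted p under 0.05 was found for 9 genes (13.0%), 5 higher and 4 lower, against 15.7% of all probe sets. The list median was 0.09 and the differences ran from -0.90 to 0.51, with 41 above and 28 below 0. The precision differed widely between these genes: the 95% interval of a difference reached 0.17 to either side for psbF, 0.50 for the median gene and 1.09 for atpA. The smallest p was that of rpl33, a ribosomal protein gene, with 10.84, 10.85 and 11.01 in WT and 9.94, 10.14 and 10.43 in *stn7*. Its arrays did not overlap, but the difference of -0.73 ± 0.19 did not pass (limma, adjusted p = 0.0561). psaJ, a small subunit of PSI, had the lowest difference of the list, -0.90 ± 0.35 (limma, adjusted p = 0.200).

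Nuclear genes of photosynthesis gave 0 calls as well. In 8 lists covering antenna, both photosystems, electron transport, thylakoid phosphoproteins, the Calvin-Benson cycle, tetrapyrroles and antioxidants, 24 genes had a named probe set. The smallest adjusted p was 0.193 in limma, and 4 of the 24 (16.7%) had an unadjusted p under 0.05, against 15.7% of all probe sets. The differences lay between -0.37 and 0.02, and 23 of 24 were below 0, with a median of -0.10. Over the 2835 probe sets with a mean log2 value of 9 or more, where most of these genes lie, the median was 0.00 and 49.98% were below 0. At 60 min 23 of the 24 were below 0 again. At 0 min 3 were, and 7 without WT 0 min arrays 1 and 3. The 95% interval of a single difference reached 0.18 to 0.29 to either side, with a median of 0.22.

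The lowest of them was CaS, a thylakoid calcium-sensing phosphoprotein, with -0.37. SBPASE, a Calvin-Benson enzyme regulated by thioredoxin, differed by -0.35 and PORB, an enzyme of chlorophyll synthesis, by -0.25. Of the genes for CP29, a minor antenna protein, LHCB4.1 differed by -0.08, LHCB4.2 by -0.04 and LHCB4.3 by -0.14. In the cores of the photosystems PSBY differed by -0.13, PSBW by -0.10, PSAN by -0.06 and PSAE-1 by -0.03. Rubisco activase (RCA) differed by -0.02. Among leaf mesophyll markers LHCB4.1, LHCB4.2 and RCA had a named probe set, at 13.10 to 13.27 in WT, toward the upper end of the range of values. The root marker EXPA7 was at 4.17, toward its lower end. These readings place signals within the range of the array and do not rank transcript amounts. Markers of flower, seed, vasculature, epidermis and dividing cells had no named probe set and were not analysed here. In leaf RNA a change in the share of a cell type and a change in RNA per cell cannot be told apart.

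Of the 2 measured guard-cell markers, 1 was called, and it was higher, where 1.05% of all probe sets were called higher and 0.73% lower. FMA (FAMA), the transcription factor that drives the last step of guard-cell differentiation, read 6.74, 6.69 and 6.69 in WT and 7.24, 7.34 and 7.32 in *stn7*. Both groups were tight and well apart, with a difference of 0.59 ± 0.12 (limma, adjusted p = 0.0222). The call was lost in 5 of the 6 fits without 1 array (adjusted p up to 0.0979). AT1G22690, the other measured marker of the 6 listed, differed by -0.54 ± 0.17 (limma, adjusted p = 0.122). The part of guard-cell number in either value was not tested.

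**Figure D4:**
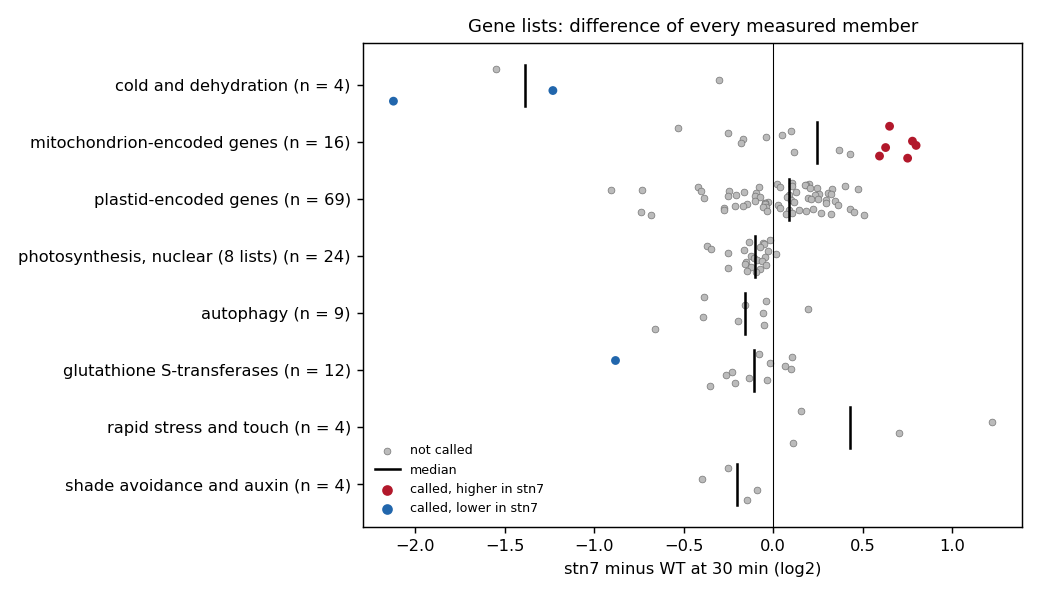
The genotype difference at 30 min (log2, horizontal axis) of every measured member of 8 groups of genes (vertical axis, with the number of genes). Filled red and blue points passed the threshold, grey points did not, and black bars are medians. The calls are 2 cold genes and 1 glutathione S-transferase gene below 0 and 6 mitochondrial genes above 0, with 0 calls in both photosynthesis groups.

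Several other groups showed 0 calls in limma. The unadjusted p was under 0.05 for 3 of 9 autophagy genes, 1 of 4 genes of rapid stress and 1 of 4 of shade avoidance. It was also under 0.05 for the 1 measured gene of the circadian clock. Over all probe sets this share was 15.7%. Among 9 autophagy genes of the ATG8 family, which coat the membranes that enclose cell parts for breakdown, 8 differences were below 0 with a median of -0.16. ATG8E differed by -0.66 ± 0.24 and ATG8F by -0.39 ± 0.13 (limma, adjusted p = 0.185 and 0.127). The 4 measured genes of rapid stress and touch responses were all above 0, with a median of 0.43 and a lowest difference of 0.11. At 60 min their median was -0.63. EXO, a brassinosteroid-responsive gene of growth, read 8.61, 9.10 and 9.30 in WT and 10.94, 9.81 and 9.93 in *stn7* at 30 min. Its groups did not overlap, with *stn7* replicate 1 the highest, and the difference of 1.23 ± 0.31 missed the threshold (limma, adjusted p = 0.0518). EXO passed in limma when the within-group axis was a covariate (adjusted p = 0.00387). That axis was taken from the residuals of these same arrays, so this is not independent support. Without *stn7* replicate 1 the difference of EXO was 0.87 (limma, adjusted p = 0.157). The 4 genes of shade avoidance and auxin, among them IAA29 (-0.40) and HAT2 (-0.25), did not pass, nor did GI of the circadian clock (0.21) and HYH, a light-signalling transcription factor (-0.35). Over all lists, 36 had a measured member, 6 of these held a call, and 12 of 212 measured members were called (5.66%, against 1.78% of all probe sets), 8 higher and 4 lower. After median centring 5 list members were called higher and 6 lower. The lists were written with earlier results of these data known. A share above that of all probe sets is therefore not evidence about them, and this holds for the cold and mitochondrial lists as well.

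How far the picture at 30 min was shared with the other times was examined for the 404 called probe sets. At 60 min 368 of them (91.1%) differed in the same direction, against 59.8% of all probe sets. At 0 min 264 (65.3%) did, against 59.9%, and 282 (69.8%) without WT 0 min arrays 1 and 3, against 59.8%. The 60 min comparison called 2974 probe sets (13.1%) and the 0 min comparison 3609 (15.9%). Of the 404, 204 (50.5%) were called the same way at 60 min, which is 6.86% of the 60 min calls, and 1 was called the opposite way. At 0 min 65 (16.1%) were called the same way, which is 1.80% of the 0 min calls, and 17 the opposite way. How many of the 404 were also called at 0 min depended on which WT arrays at 0 min were kept. With 1 WT array kept, the number of all probe sets called at 0 min turned on which one it was. It was 3 with array 2, 1668 with array 1 and 3438 with array 3. Without array 1, 2 or 3 alone it was 1325, 5039 and 664. When the within-group axis was a covariate, 3 were called at 0 min, 828 at 30 min and 546 at 60 min.

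**Figure D5:**
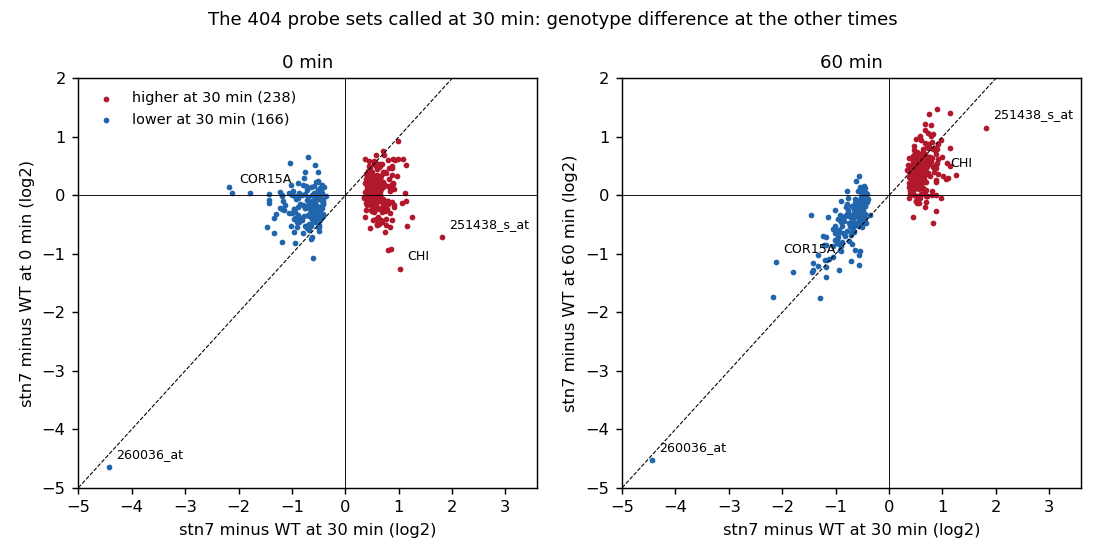
The genotype difference (log2) of the 404 probe sets called at 30 min (horizontal axis) against their difference at 0 min (left, vertical axis) and at 60 min (right), with the dashed line marking equal values. Red points are the 238 higher and blue points the 166 lower at 30 min. At 60 min 368 of 404 lie on the same side of 0 as at 30 min, and at 0 min 264 do.

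The change in the genotype difference was tested directly. Against 0 min 463 probe sets (2.04%) passed, 217 upward (0.954%) and 246 downward (1.08%), of which 96 were also called at 30 min. With 1 WT array at 0 min the number was 3 with array 2, 533 with array 1 and 1295 with array 3. Without WT 0 min array 1, 2 or 3 alone it was 18, 2216 and 23, and without 1 array at 30 min it was 25 (WT replicate 2) to 462 (WT replicate 1). Against 60 min 5 probe sets (0.022%) passed, and 0 of them were among the 404. Those with 1 gene were TGH, a G-patch protein of RNA processing, with 0.67 at 30 min and -1.0 at 60 min, and AT1G78170, with -0.13 and 0.89. Without *stn7* replicate 1 at 30 min 161 passed, and without any other single array at 30 min 0 did. A difference at 30 min that departed from the mean of the other times was found for 2 probe sets (0.00879%), while 1530 (6.73%) had an unadjusted p under 0.05. These were COR15A, at -1.57 ± 0.21 (limma, adjusted p = 0.0203), and 251438_s_at, at 1.59 ± 0.24 (limma, adjusted p = 0.0426). COR15A passed under 10 of 16 alternatives (adjusted p 0.00152 to 0.165) and 251438_s_at under 7 of 16 (adjusted p 0.00483 to 0.277).

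Probe set 251438_s_at matches several genes, AT5G33355 and AT3G59930, and had the largest rise at 30 min. It read 6.97, 6.84 and 6.98 in WT and 8.92, 8.51 and 8.78 in *stn7*, with a wide gap between tight groups. The difference was 1.81 ± 0.20, a 3.51-fold higher signal (limma, adjusted p = 0.000201). It was -0.71 at 0 min (-0.14 without WT 0 min arrays 1 and 3) and 1.16 at 60 min, and the change from 0 to 30 min of 2.52 ± 0.28 was 1.96 without WT 0 min arrays 1 and 3 (limma, adjusted p = 0.000822 and 0.00508).

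In 28 probe sets the genotypes differed the same way at all times, 17 higher and 11 lower. BCAT4, SWEET13 and THE1 were those with a gene symbol. The count of 28 was lower in every fit with 1 WT array kept at 0 min, and it turned on which array that was. It was 2 with the axis score in the 0 min test, which can take up part of the genotype difference at that time. At the other end, 158 of the 404 were called at neither 0 nor 60 min, a count of thresholds and not of tested differences. The most extreme of the 28 was 260036_at, for which the annotation used here lists no gene. It is described because of its values. Since it may report the disrupted STN7 gene itself, as set out below, it is not read as a downstream effect of losing the kinase. It read 8.82, 8.51 and 8.82 in WT and 4.15, 4.37 and 4.31 in *stn7*. The *stn7* values lie near the lower end of the scale on all 3 arrays. The difference was -4.43 ± 0.15, a 21.6-fold lower signal (limma, adjusted p = 2.84e-12), and was -4.52 at 60 min. At 0 min it was -4.64, and -4.75 without WT 0 min arrays 1 and 3 (limma, adjusted p = 1.28e-12 and 5.62e-09).

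No probe set was listed for STN7, so the targeted transcript could not be checked by name. Of the 40 genes nearest to STN7 in TAIR10.1, 20 on each side, 13 had a named probe set and 0 were called. Their differences lay between -0.24 and 0.44, with a smallest adjusted p of 0.251 in limma, and 1 had an unadjusted p under 0.05. Some of these neighbours have probe sets numbered just before and just after 260036_at, which has no listed gene. It may therefore report STN7 itself, and its signal was near the lower end of the scale in *stn7* at every time. A probe set number does not assign a gene, and the identity of 260036_at was not tested.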

How the data were processed

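Gene expression was measured on Affymetrix arrays with RNA labelled by a poly(A)-primed kit, per the labels' protocols. The deposited table holds log2 values per probe set for 18 arrays, and the submitters' processing notes list RMA, GCOS and version 1.1 of Affymetrix Expression Console. RMA corrects background, normalizes and summarises each probe set. Its settings were not given in the sources used here. It usually includes quantile normalization, after which a shift of all transcripts would not be seen. The medians of the deposited arrays still ran from 6.10 to 6.31. Precision is limited by the number of arrays.

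From 22810 probe sets, 64 controls were removed and 22746 tested, with no filter or further scaling. Gene names came from the supplied probe annotation and RefSeq (TAIR10.1), where 13436 of 13513 probe sets with 1 gene matched, 503 had several genes and 8730 were not listed.

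One limma fit (version 3.58.1, R 4.3.3) with a mean for each of the 6 groups of 3 arrays gave every difference, so all 18 arrays share the estimate of the spread, and p-values were adjusted by Benjamini-Hochberg over all probe sets with a threshold of 0.05. The fit was tested on simulated data. The genes named are the 15 largest rises and falls among called probe sets with 1 gene and no overlap of arrays, list members that passed or up to 2 with the smallest p, probe sets past the threshold in the difference from the other times, and the largest fall; all called genes with a symbol were added later. For several probe sets of 1 gene the brightest was taken. The genes and the 47 lists, which include organelle and family lists, were chosen with earlier results of these data known. The lists given by locus held 331 loci, of which 68 had a named probe set. Of the 47 lists, 11 had 0 measured members. Replicate numbers were not treated as pairs in the main fit: deviations of same-numbered arrays at 30 min correlated at 0.03, -0.08 and 0.13. The other times were not checked.

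Alternatives were quantile normalization, median centring, signal filters (the 30th percentile, the median), trended robust variance, array weights, fewer arrays, the replicate number as a block, the within-group axis (the first component of residuals, 28.0% of within-group variance) or the 3′ to 5′ difference as a covariate, a 2-fold minimum and leaving out single arrays. Leaving out WT arrays at 0 min, singly and in pairs, was added after seeing the data. Promoter motifs were not analysed here. Figures were drawn with matplotlib 3.10.9 in Python 3.11.15.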

Additional observations from a re-analysis of the deposited data

Results flagged for a closer look

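In 22 of the 66 named probe sets called at 30 min the genotype difference at 30 min was not the one at 0 min, by limma's test of the change (adjusted p 0.000822 to 0.0483). In 18 of the 22 the difference had opposite signs at the 2 times. Some of the 0 min differences were small, such as 0.05 for COR15A and 0.04 for AT5G01870, and others were not, such as -0.93 for cox2. An opposite sign alone is therefore not read as a reversal. The change was downward for COR15A (-2.17), COR15B (-1.29), CHIL (-0.78), the 264824_at probe set of 2A6 (-0.53), AT3G05730 (-2.31), AT5G01870 (-1.83), AT3G56360 (-1.60), AT5G33370 (-1.30), AT2G33850 (-1.34) and AT3G62950 (-0.99). It was upward for 251438_s_at (2.52), CHI (2.28), cox2 (1.73), nad5 (1.37), ccb452 (1.12), cox1 (1.09), nad9 (1.01), THO5 (0.68), BGLU40 (0.80), ALDH10A8 (0.52), AT2G07741 (1.77) and AT5G12110 (1.37). Without WT 0 min arrays 1 and 3, which leaves 1 WT array at 0 min, COR15A and 251438_s_at alone of the 22 passed. With array 1 or array 3 as the lone WT array 15 and 18 of the 22 passed, and 7 of the 22 passed when the within-group axis was a covariate. The difference at 30 min also departed from the mean of 0 and 60 min for COR15A (-1.57) and 251438_s_at (1.59). Why these differences varied with time was not tested.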

How the results depend on the processing

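All 66 named calls kept their direction under all 18 alternatives that gave them a value, 26 passed under each of these, and between 29 (without *stn7* replicate 3) and 66 (array weights, within-group axis) passed in any one. At 30 min the count of 404 was 772 with array weights, 194 from the 6 arrays at 30 min alone, 265 with the replicate number as a block, 828 with the within-group axis and 36 with a 2-fold minimum, and 92 to 322 without 1 array; the axis and array weight counts held all 404. The change against 0 min (463) was 1500 with array weights, 155 with the block, 11 with the axis, 275 with the 3′ to 5′ difference, 18 to 2216 without 1 array, 3 without WT 0 min arrays 1 and 3 and 1295 without arrays 1 and 2. The change against 60 min (5) was 9 after centring, 702 with array weights, 0 with the block, 1 with the axis, 0 with the 3′ to 5′ difference, 0 to 161 without 1 array and 9 without those WT arrays. The change against both other times (2) was 1 after centring, 0 with the block, 1 with the 3′ to 5′ difference and 0 to 3 without 1 array. The 0 min count (3609) was 5729 after centring, 3 with the axis, 3 without those WT arrays, 1668 without arrays 2 and 3, and 664 to 5039 without 1 array, and the 60 min count (2974) was 546 with the axis. List members called (12) were 5 to 11 without 1 array. The cause of these shifts was not tested. The within-group axis was taken from the residuals of these same arrays, so calls kept or gained with it are not independent support. Its score differed between the genotypes at 0 and 60 min, so calls lost with it at those times do not settle whether the differences hold. Same-numbered arrays at 30 min did not deviate together, but the other times were not checked. Whether the replicate number marks a batch was therefore not settled, and the smaller counts under the block stand as a limit. Dim probe sets lie near background, where differences are compressed.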
